A study of Mus musculus with 34 samples.

Results

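The MYC and MAX network was followed through 9 genes: Myc, Mycn, Mycl, Max, Mxd1, Mxd3, Mxd4, Mxi1 and Mnt. They were taken by symbol from the 19938 genes that the arrays report under a single symbol, with the probeset of highest mean where a gene had several, and each of the 9 had 1 probeset. Their transcripts were measured on 34 mouse Gene 1.0 ST arrays in 12 groups. The groups combine 2 cell lines, 2 drugs and 3 times. Both lines are pre-B acute lymphoblastic leukaemia cells grown from BCR/ABL transgenic mice, each from 1 animal: the mouse that gave 8093 was inbred C57Bl/6J (f11), and the Bin-2 mouse had a mixed background. All cultures, start samples included, grew on irradiated mouse embryonic fibroblasts in medium with recombinant IL-3, and loosely attached or floating cells were collected. Nilotinib, an inhibitor of the ABL kinase, was used at 20 nM in 8093 cultures, whereas Bin-2 cultures had 50 nM. Lonafarnib, a farnesyltransferase inhibitor, was used at 1 µM in 8093 cultures, whereas Bin-2 cultures had 0.25 µM (1 of the descriptions prints mM). Start arrays came from day 0. Midpoint arrays came from day 4 for 8093 with lonafarnib, at 20% viability, and from day 3 for the other 3 courses, at 5 to 10% viability. End arrays came from about 90% viable cultures growing in drug again, on day 20 (8093, nilotinib), 26 (8093, lonafarnib), 21 (Bin-2, nilotinib) and 30 (Bin-2, lonafarnib). Each group had 3 arrays from separate plates, except both 8093 end groups, which had 2. Midpoint samples needed a larger dish or pooled dishes. The groups used here hold no untreated culture of the later days, so time in culture and drug cannot be told apart, and doses and days were not matched between lines or drugs.

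MYC, MYCN and MYCL are basic helix-loop-helix leucine zipper proteins that bind E-box DNA as dimers with MAX and activate genes for growth, metabolism and cell division. MAX also pairs with the repressors MXD1, MXD3, MXD4, MXI1 and MNT, which bind the same DNA and recruit SIN3 corepressors. In precursors of B cells MYC and MYCN drive division, BCR/ABL signalling is known to raise MYC, and MXD1 is known to increase when blood cells differentiate and stop dividing.

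Before the members are described, the make-up of the samples needs stating, since these are bulk RNA measurements in which fewer cells of a type and less RNA per cell cannot be told apart. The mean log2 signal of 12 pre-B cell markers was 8.96 at the start of the 8093 nilotinib course (8.84 to 9.07 over arrays), 8.97 at its midpoint (8.60 to 9.22) and 5.66 at its end (5.55 to 5.77). At that end 11 of the 12 markers had fallen and 1 (Blnk, an adaptor of the pre-B cell receptor) had risen, so the arrays labelled 8093 nilotinib end did not carry the marker profile of the labelled pre-B cell. Mast cell markers (12 genes) averaged 4.01, 9.48 and 11.40 at the 3 times of that course, and 12 of 12 rose at both later times; at the start 9 of the 12 were not above the dim reference described below. Macrophage markers (12 genes) averaged 4.88, 8.82 and 8.66 there, and 10 of 13 fibroblast markers, the type of the feeder cells, were higher at its midpoint (mean 5.30 against 4.65). In the Bin-2 nilotinib course pre-B cell markers averaged 9.84, 9.73 and 9.72, mast cell markers 4.32, 4.41 and 7.16, and macrophage markers 5.72, 8.41 and 9.22. The 8093 nilotinib midpoint and Bin-2 lonafarnib midpoint arrays also had a compressed range of signal, with interquartile ranges of 3.03 and 3.16 log2 units against 3.42 to 3.55 in the other groups. All 3 arrays of each of these midpoints were of this kind. Member calls that rest on them are therefore also given after quantile and scale normalization, which bring the spread of the arrays closer together. The dim reference itself rose from start to midpoint, from 4.59 to 5.12 (8093 nilotinib) and from 4.62 to 4.95 (Bin-2 lonafarnib). Marker values are given without these normalizations. The part of the compressed range in them, the 8093 fibroblast rise included, was not tested.

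Promoter letters were read for 8 of the 9 members, from 250 bases before to 50 after each RefSeq start in GRCm38, on both strands. The member without a window in the set used was Myc, so its promoter was not read. The E-box CACGTG, the palindrome that MYC-MAX and MXD-MAX dimers bind, stood in 8.09% of the 27025 genes with such a window (7.15% of 32851 windows). It stood in 3 of 8 members: at position -3 in Max, -219 in Mxd4 and -123 in Mnt, counting the first base of the motif from the start. The variant CACGCG, found in 10.5% of genes, stood in Mycl at -20. Mycn, the member whose level varied most across the groups, carried 2 copies of the E2F-type motif TTTGGCGC, at -183 and -168; that motif stood in 0.585% of genes. The stretches of Mycn, Mxd4 and Mnt that hold these letters upstream of the start are shown with the motif in capitals, beside that of Cdk4, a classical MYC target that held 4 E-boxes at -172, -118, -98 and -11.
Mycn (chr12:12941837-12942086, minus strand): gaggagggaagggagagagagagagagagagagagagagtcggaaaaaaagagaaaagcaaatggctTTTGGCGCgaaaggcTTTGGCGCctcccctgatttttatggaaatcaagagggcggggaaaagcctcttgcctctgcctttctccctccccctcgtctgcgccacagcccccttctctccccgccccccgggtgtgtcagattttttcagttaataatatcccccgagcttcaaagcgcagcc
Mxd4 (chr5:34187881-34187960, minus strand): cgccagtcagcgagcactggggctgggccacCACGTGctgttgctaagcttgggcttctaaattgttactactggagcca
Mnt (chr11:74830764-74830843, plus strand): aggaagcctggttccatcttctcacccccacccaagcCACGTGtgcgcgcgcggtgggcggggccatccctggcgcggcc
Cdk4 (chr10:127063326-127063534, plus strand): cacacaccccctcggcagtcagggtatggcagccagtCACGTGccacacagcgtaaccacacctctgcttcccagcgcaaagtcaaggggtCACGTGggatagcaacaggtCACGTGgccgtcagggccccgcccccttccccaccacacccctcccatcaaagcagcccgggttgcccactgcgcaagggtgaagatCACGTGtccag
These letters are a description of the windows and say nothing about binding in the cells measured.

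Levels are log2 signals, and each member's group means were set against the 95th percentile of 1027 olfactory receptor genes in that group (4.48 to 5.12), which serves as a dim reference. All members lay above it in 12 of 12 groups, except Mycl in 11 of 12. Mycl at the Bin-2 lonafarnib midpoint (4.89) was no higher than the reference of 4.95. Over the 12 group means Mycn spanned 2.62 log2 units, Myc 1.64, Mxd1 1.18, Max 1.03, Mxi1 1.00, Mycl 0.71, Mxd4 0.71, Mxd3 0.70 and Mnt 0.42. Neighbouring groups in the order of levels mostly overlapped. For Mycn the Bin-2 nilotinib midpoint and end together lay below every other group. The groups that stood clear of all others at the low end were the 8093 nilotinib end for Myc and the 8093 nilotinib midpoint for Max. Standing clear at the high end were the 8093 nilotinib end for Mxd1, the 8093 lonafarnib end for Mxi1 and the Bin-2 lonafarnib end for Max.

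**Figure D1:**
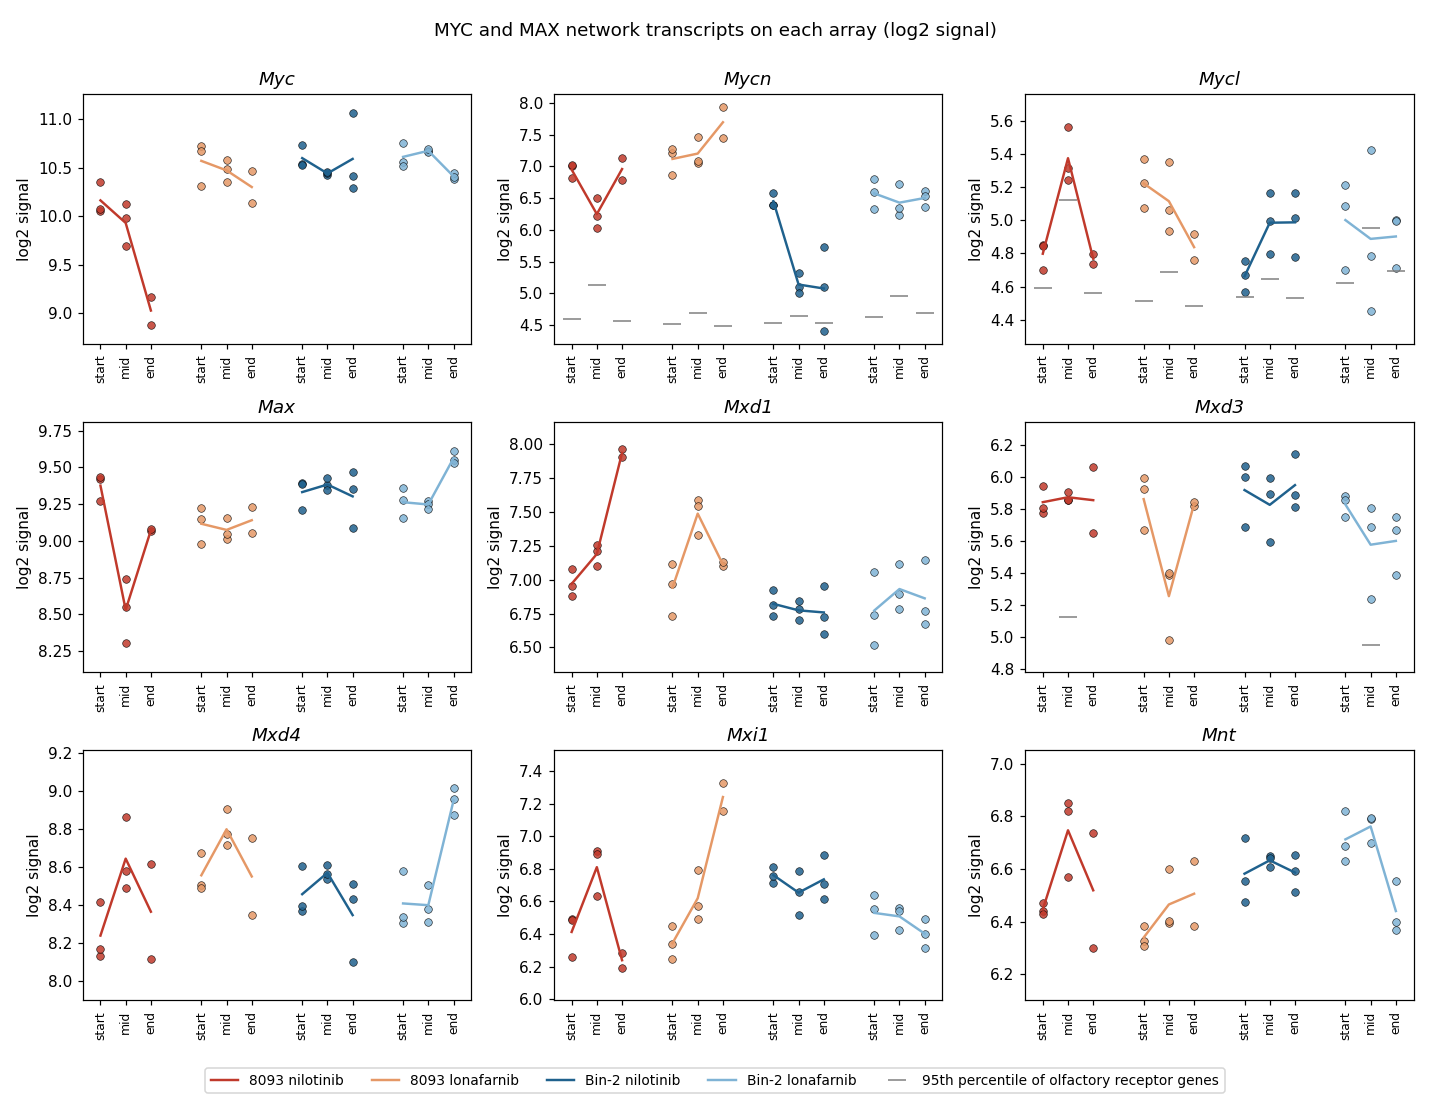
Log2 signal of the 9 network genes on each of the 34 arrays, by line, drug and time (points, arrays; lines join group means; grey ticks, 95th percentile of olfactory receptor genes where it falls within the axis). Myc drops to 9.03 only in the 8093 nilotinib end arrays, and Mycn to 5.14 and 5.08 at the Bin-2 nilotinib midpoint and end.

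A change was called at an adjusted p below 0.05 in 1 limma fit over all 34 arrays and 19938 genes. In the 8093 nilotinib course 6 members changed at the midpoint against the start (4 higher, 2 lower), where 50.1% of all genes did so (22.6% higher, 27.5% lower). After scale normalization that split of all genes became 2998 higher and 7112 lower, and the median change of all genes moved from 0.03 to -0.16. Between midpoint and end of that course it moved from -0.15 to 0.02. At the end of that course 3 members changed against the start (44.5% of all genes) and 6 between midpoint and end (54.5%). A share of members near the background says nothing about the network in particular. With lonafarnib, 8093 had 2 members changed at the midpoint (10.8% of all genes), 1 at the end (8.71%) and 2 between midpoint and end (6.26%). Of the genes called at that lonafarnib end 877 were higher and 860 lower, which became 584 and 1193 after scale normalization. In Bin-2, 1 member was called at the nilotinib midpoint (3.47% of all genes) and 1 at the nilotinib end (8.89%). The calls at the Bin-2 nilotinib end split into 987 higher and 785 lower, or 844 and 1083 after scale normalization. Between these 2 times 0 members were called by limma (1.41% of all genes), and 0 had an unadjusted p below 0.05. Lonafarnib in Bin-2 gave 0 called members at the midpoint (16.5% of all genes; 0 with an unadjusted p below 0.05), 1 at the end (8.07%) and 3 between midpoint and end (29.7%). Changes were also compared directly. Between drugs the test of the difference called 3 members in 8093 at the midpoint (26.8% of all genes) and 3 at the end (33.2%), and in Bin-2 1 at the midpoint (1.48%) and 2 at the end (9.51%). Between lines it called 2 at the nilotinib midpoint (26.0%), 3 at the nilotinib end (30.6%) and 1 at the lonafarnib end (4.61%). At the lonafarnib midpoint it called 0 by limma (4.20%; 1 with an unadjusted p below 0.05). Scale normalization moved the split of all genes called from 207 higher and 88 lower to 146 and 110 for the Bin-2 midpoint difference between drugs, and from 168 and 670 to 411 and 408 for the lonafarnib midpoint difference between lines (215 and 471 after quantile normalization).

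**Figure D2:**
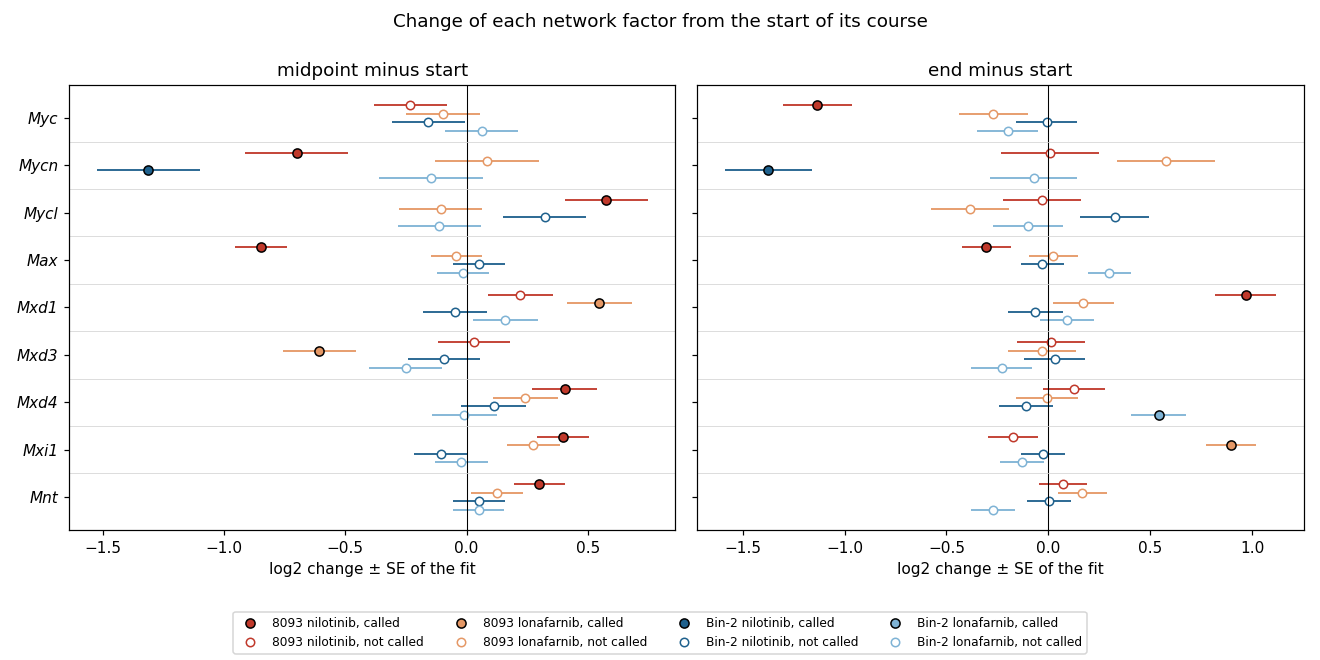
Log2 change of each member from the start of its course, at the midpoint (left) and at the end (right), with the standard error of the fit; filled points were called at an adjusted p below 0.05. In the nilotinib courses Mycn was down at the midpoint in both lines, whereas at the end Mycn was down in Bin-2 and Myc in 8093.

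Myc, the founding oncogene of the family, fell in 1 of the 4 courses, and only at its end. The 8093 nilotinib arrays read 10.36, 10.06 and 10.08 at the start, 9.98, 9.69 and 10.12 at the midpoint and 9.17 and 8.89 at the end. Both end arrays were below every other array of the series. The end lay 1.13 log2 units below the start (SE 0.17, 2.19-fold, adjusted p = 1.47e-06) and 0.90 below the midpoint (SE 0.17, adjusted p = 5.53e-05). The change from the midpoint was -1.15 after quantile and -1.44 after scale normalization, both called. The midpoint itself differed from the start by -0.23 (SE 0.15, adjusted p = 0.207), and by 0.044 after scale normalization. With lonafarnib the 8093 arrays read 10.73, 10.31 and 10.68 at the start, 10.35, 10.48 and 10.58 at the midpoint and 10.47 and 10.13 at the end. Those groups overlapped, and neither change was called (-0.10 and -0.27, SE 0.15 and 0.17). The nilotinib end change exceeded the lonafarnib one by -0.86 (SE 0.24, adjusted p = 0.00498), a call lost without lonafarnib end replicate 1 (-0.70). In Bin-2, Myc read 10.54, 10.53 and 10.73 before nilotinib, 10.42, 10.44 and 10.46 at the midpoint, below the start without overlap but not called (-0.16), and 11.06, 10.42 and 10.30 at the end. The end change was -0.01 (95% confidence interval -0.32 to 0.30), and without replicate 1, the highest Myc array of the series, it was -0.24. Bin-2 lonafarnib arrays lay between 10.38 and 10.76, with changes of 0.06 and -0.20 that were not called. The nilotinib end responses of the lines differed by 1.13 (Bin-2 minus 8093, SE 0.23, adjusted p = 0.00021).

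The fall of Myc coincided with the fall of pre-B cell markers given above: on the 8093 nilotinib end arrays the marker list averaged 5.77 and 5.55 where Myc read 9.17 and 8.89. In all other groups the list lay at 8.60 or higher on each array, and Myc at 9.69 or higher. The part of the changed cell make-up in the Myc level was not tested. At the 8093 nilotinib midpoint the mast and macrophage lists had already risen to 9.48 and 8.82 while the pre-B list stood at 8.97 and Myc had not passed the test.

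**Figure D3:**
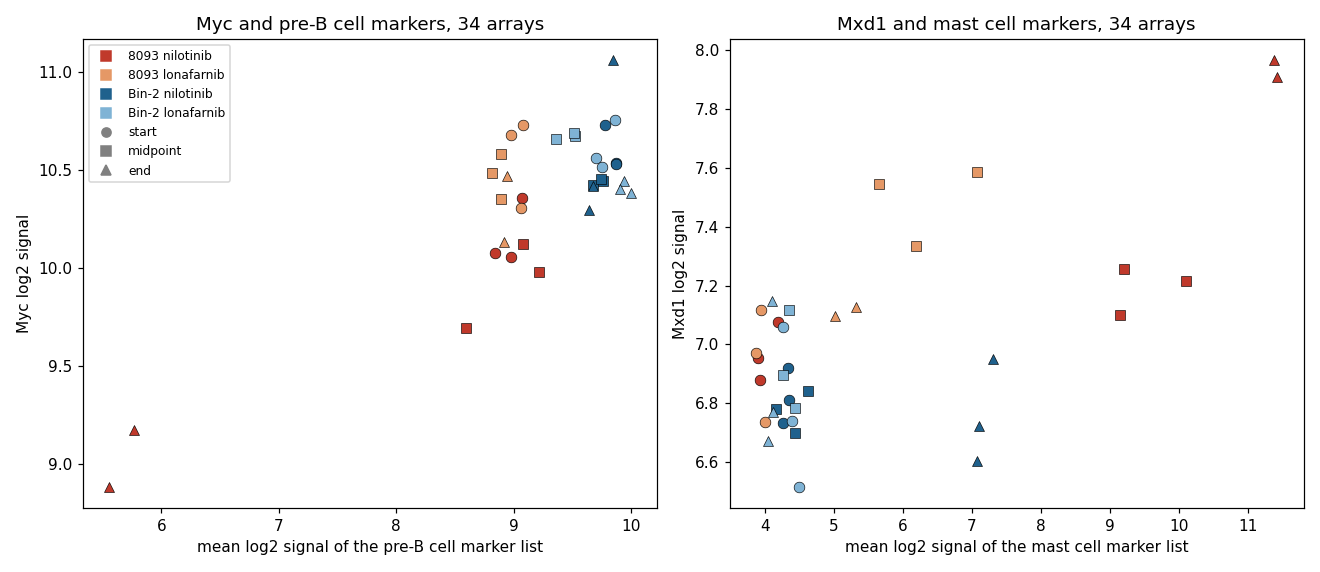
Left, Myc log2 signal against the mean log2 signal of 12 pre-B cell markers; right, Mxd1 against the mean of 12 mast cell markers, for 34 arrays (colour, line and drug; shape, time). The 2 arrays of the 8093 nilotinib end stand apart in both panels, while the Bin-2 nilotinib end arrays have raised mast cell markers with Mxd1 at 6.60 to 6.95.

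Mycn, the family member known from neuroblastoma and from lymphoid precursors, was the network gene called lower in the nilotinib courses of both lines. In Bin-2 the arrays read 6.39, 6.39 and 6.58 at the start, 5.31, 5.10 and 5.00 at the midpoint and 5.10, 4.40 and 5.73 at the end. Start arrays were all above the later ones, and end replicate 2 lay below the dim reference of 4.53. The midpoint was 1.31 log2 units below the start (SE 0.21, 2.48-fold, adjusted p = 0.00021) and the end 1.38 below it (SE 0.21, 2.59-fold, adjusted p = 3.11e-05). Lonafarnib arrays of the same line lay between 6.23 and 6.81. Their changes, -0.15 and -0.07, were not called. The nilotinib change of Bin-2 was lower than the lonafarnib change by 1.17 at the midpoint (SE 0.30, adjusted p = 0.0443) and by 1.30 at the end (SE 0.30, adjusted p = 0.0045). The midpoint call of that difference was lost after quantile normalization (-1.22; -1.20 after scale normalization, called), in a fit of Bin-2 arrays alone and without any of 10 single arrays of Bin-2, while its size stayed between -1.28 and -1.02. In 8093 nilotinib, Mycn read 7.01, 6.81 and 7.03, then 6.22, 6.03 and 6.50, then 6.78 and 7.13. It fell at the midpoint by 0.70 (SE 0.21, adjusted p = 0.00735), a call kept after quantile (-0.63) and scale (-0.79) normalization. From there to the end it rose by 0.71 (SE 0.24, adjusted p = 0.0139), and the end change from the start was 0.01 (95% confidence interval -0.48 to 0.50). That return lost its call after quantile normalization (0.57; 0.66 after scale normalization, called) and without midpoint replicate 2 (0.60) or end replicate 2 (0.54). The 8093 lonafarnib end arrays read 7.94 and 7.45, above the 7.21, 6.87 and 7.28 of the start but overlapping the 7.06, 7.09 and 7.46 of the midpoint. The difference from the start of 0.58 (SE 0.24, adjusted p = 0.145) was not called. At the end the nilotinib response of Bin-2 was below that of 8093 by 1.38 (SE 0.32, adjusted p = 0.00102). At the midpoint the same line difference, -0.61 (SE 0.30), was not called.

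Macrophage markers rose with nilotinib beside the Mycn values. At the Bin-2 midpoint 12 of 12 had risen, from a list mean of 5.72 (5.49 to 5.89) to 8.41 (7.60 to 9.09), and at the end it was 9.22 (8.18 to 9.78). At the Bin-2 midpoint 5 of 13 fibroblast markers had risen too (list mean 4.51 to 4.83), and at the Bin-2 end 11 of 12 mast cell markers. At the 8093 midpoint 11 of 12 macrophage markers had risen. At the 8093 nilotinib end the list mean was 8.66 (7.82 to 9.50) with Mycn at 6.96, against 6.95 at the start. The part of these markers' cells in the Mycn level was not tested. Pre-B cell markers in Bin-2 averaged 9.73 and 9.72 at both later times of nilotinib, with 1 of 12 lower at the midpoint and 3 lower and 1 higher at the end.

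Mycl, the third family member, was close to the dim reference throughout. Its 8093 nilotinib arrays read 4.85, 4.84 and 4.70, then 5.32, 5.24 and 5.56, then 4.80 and 4.74. The midpoint was higher than start and end without overlap. It rose by 0.58 (SE 0.17, adjusted p = 0.00609) and fell again by 0.61 (SE 0.19, adjusted p = 0.00909). These are the compressed arrays, where the dim reference also stood at its highest, 5.12. After quantile and scale normalization neither call held (0.41 in both for the rise, -0.45 and -0.46 for the fall). The fall was also lost without end replicate 2 (-0.57). The other 3 courses ranged from 4.45 to 5.42 and gave no call. The midpoint change in 8093 was 0.68 higher with nilotinib than with lonafarnib (SE 0.24, adjusted p = 0.0356), a call lost after both normalizations (0.60 and 0.61) and without any of 6 single arrays.

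Max, the shared partner with which the other members pair, fell in the 8093 nilotinib course. Its arrays read 9.27, 9.42 and 9.44 at the start, 8.74, 8.55 and 8.31 at the midpoint, and 9.07 and 9.08 at the end. The 3 midpoint arrays were the lowest of the series. The midpoint was 0.85 log2 units below the start (SE 0.11, 1.80-fold, adjusted p = 1.15e-07). The fall was 0.55 after quantile and 0.72 after scale normalization, with the call kept. From midpoint to end Max rose by 0.54 (SE 0.12, adjusted p = 0.000394), but by 0.21 and 0.15 after those normalizations, without a call. The end stayed 0.30 below the start (SE 0.12, adjusted p = 0.039). That smaller fall was not called in a fit of 8093 arrays alone, or without start replicate 2 (-0.28), start replicate 3 (-0.27), end replicate 1 (-0.30) or end replicate 2 (-0.31). In the other 3 courses Max lay between 8.98 and 9.61. Its only other call was a rise of 0.32 between midpoint and end of Bin-2 with lonafarnib (SE 0.11, adjusted p = 0.0257), from 9.27, 9.25 and 9.21 to 9.61, 9.55 and 9.53. That rise was 0.19 after quantile and 0.018 after scale normalization and was lost without midpoint replicate 2 or 3 or end replicate 1 or 2 (0.29 to 0.32). The fall at the nilotinib midpoint exceeded that with lonafarnib in 8093 by 0.80 (SE 0.15, adjusted p = 0.000204), and Bin-2 minus 8093 was 0.90 (SE 0.15, adjusted p = 4.48e-05). Both calls were kept after quantile normalization (-0.58 and 0.66) and scale normalization (-0.67 and 0.79).

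Mxd1, the MAX partner that opposes MYC in differentiating cells, rose in 8093 with both drugs, at different times. With nilotinib it read 6.88, 6.95 and 7.08 at the start, 7.10, 7.21 and 7.26 at the midpoint and 7.91 and 7.97 at the end. The end arrays were the highest of the series, 0.97 log2 units above the start (SE 0.15, 1.96-fold, adjusted p = 2.61e-06) and 0.75 above the midpoint (SE 0.15, adjusted p = 0.000126). The rise from the midpoint was 0.45 after quantile and 0.55 after scale normalization, both called. The midpoint difference of 0.22 (SE 0.13, adjusted p = 0.173) was not called, although it was after quantile normalization (0.45), and not after scale normalization (0.23). With lonafarnib Mxd1 read 6.97, 6.73 and 7.12, then 7.59, 7.55 and 7.33, then 7.10 and 7.13. It rose by 0.55 at the midpoint (SE 0.13, adjusted p = 0.00672), a call lost without start replicate 2 (0.44), and the end change of 0.17 was not called. All 12 Bin-2 nilotinib and lonafarnib arrays taken under drug lay between 6.60 and 7.15. None of the 4 Bin-2 changes from start, -0.06 to 0.16, passed the test. At the end the nilotinib response exceeded that of lonafarnib in 8093 by 0.80 (SE 0.21, adjusted p = 0.00348), and that of Bin-2 was below that of 8093 by 1.03 (SE 0.20, adjusted p = 0.000135). Mast cell markers were raised in the same 8093 groups: 12 of 12 at the nilotinib end (11.40; 11.37 to 11.43) and 10 of 12 at the lonafarnib midpoint (6.30; 5.65 to 7.07). Macrophage markers averaged 6.37 at that lonafarnib midpoint (5.98 to 7.04; 4.94 at the start), where 6 of 12 had risen. Mast cell markers were also raised in groups where Mxd1 was not called, namely the 8093 nilotinib midpoint (9.48; 9.14 to 10.10) and the Bin-2 nilotinib end (7.16; 7.07 to 7.31; 11 of 12). Their part in the Mxd1 level was not tested.

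Mxd3, the member of the MXD group known to be expressed in dividing cells, was lower at a single point. The 8093 lonafarnib arrays read 5.93, 6.00 and 5.67 at the start, 5.39, 5.40 and 4.98 at the midpoint and 5.82 and 5.85 at the end. The midpoint was below both other times without overlap. It fell by 0.61 (SE 0.15, adjusted p = 0.00729) and rose again by 0.58 (SE 0.17, adjusted p = 0.0341). The fall lost its call without midpoint replicate 3 (-0.47), and the rise without that array (0.44) or either end array (0.59 and 0.56). Nilotinib arrays of 8093 lay between 5.65 and 6.06. The mast cell and macrophage markers given above for the lonafarnib midpoint also stood beside the Mxd3 fall, and their part in it was not tested. The responses to the 2 drugs differed by 0.64 at the midpoint (SE 0.21, adjusted p = 0.0251). This difference was called after quantile (0.64) and scale (0.59) normalization and was lost without nilotinib start replicate 1 (0.61), lonafarnib start replicate 1 (0.61) or 2 (0.57), or lonafarnib midpoint replicate 3 (0.50).

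Mxd4, a MAX-binding repressor, rose at the end of the Bin-2 lonafarnib course. It read 8.58, 8.31 and 8.34 at the start, 8.51, 8.38 and 8.31 at the midpoint and 8.88, 9.02 and 8.96 at the end. The end arrays were above all earlier ones, by 0.54 over the start (SE 0.13, adjusted p = 0.00826) and 0.55 over the midpoint (SE 0.13, adjusted p = 0.00243). The first call was lost without start replicate 2 (0.49), the second after scale normalization (0.32; 0.40 after quantile normalization, called). On these end arrays mast cell markers averaged 4.09, macrophage markers 6.12 (5.82 to 6.39; 5.62 at the start) and pre-B cell markers 9.95. Against the midpoint, 9 of 13 fibroblast markers fell (list mean 5.18, 5.03 to 5.38, to 4.62, 4.54 to 4.70) and 8 of 12 pre-B cell markers rose (9.47, 9.36 to 9.52, to 9.95, 9.91 to 10.00). These shifts stood beside the Mxd4 and Max rises and the Mnt fall between these 2 times, and their part in them was not tested. The midpoint arrays of this course are compressed, and the dim reference fell as well between these times, from 4.95 to 4.70. Marker values are given without further normalization, and the part of the compressed range in the marker shifts was not tested. In 8093 with nilotinib Mxd4 read 8.42, 8.13 and 8.17, then 8.58, 8.49 and 8.87, then 8.11 and 8.62. Its midpoint rise of 0.41 (SE 0.13, adjusted p = 0.0132) lost its call without start replicate 2 (0.35) or midpoint replicate 3 (0.30). The rise was 0.67 after quantile and 0.56 after scale normalization, both called. The 2 end arrays spanned both earlier levels. At the end in Bin-2 the nilotinib change was 0.65 below the lonafarnib change (SE 0.19, adjusted p = 0.0258). That call was lost after quantile normalization (-0.58) and without nilotinib start replicate 1 or end replicate 3, lonafarnib start replicate 2 or 3, or lonafarnib end replicate 2 (-0.62 to -0.53).

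Mxi1, the MAX interactor also called MXD2, rose most at the end of the 8093 lonafarnib course. The arrays read 6.34, 6.25 and 6.45 at the start, 6.57, 6.79 and 6.49 at the midpoint and 7.33 and 7.15 at the end. The end arrays were the highest of the series, 0.90 log2 units above the start (SE 0.12, 1.86-fold, adjusted p = 7.72e-06) and 0.62 above the midpoint (SE 0.12, adjusted p = 0.0012). Mast cell markers averaged 5.17 on these arrays (5.02 to 5.32; 3.94 at the start; 5 of 12 higher), and their part was not tested. With nilotinib 8093 read 6.49, 6.26 and 6.48, then 6.91, 6.89 and 6.63, then 6.29 and 6.19. This was a rise of 0.40 at the midpoint (SE 0.11, adjusted p = 0.00309) and a fall of 0.57 from there to the end (SE 0.12, adjusted p = 0.00026). Both calls were kept after quantile (0.56 and -0.80) and scale (0.37 and -0.64) normalization. In Bin-2 all arrays lay between 6.32 and 6.89 and no change over time was called. The end response of 8093 differed between drugs by -1.07 (nilotinib minus lonafarnib, SE 0.17, adjusted p = 9.11e-06). For lonafarnib it differed between lines by -1.02 (Bin-2 minus 8093, SE 0.16, adjusted p = 0.000116). At the nilotinib midpoint the line difference was -0.50 (SE 0.15, adjusted p = 0.0142), which lost its call without 8093 start replicate 2 (-0.43) or Bin-2 midpoint replicate 3 (-0.44) and kept it after quantile (-0.64) and scale (-0.49) normalization.

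Mnt, the broadly expressed MAX-binding repressor, varied least. In the 8093 nilotinib course it read 6.44, 6.43 and 6.47, then 6.57, 6.82 and 6.85, then 6.74 and 6.30. The midpoint was above the start without overlap, by 0.30 (SE 0.11, adjusted p = 0.0203). That call was lost in a fit of 8093 arrays alone and without start replicate 2 (0.29), midpoint replicate 2 (0.26) or midpoint replicate 3 (0.25). It was kept after quantile (0.45) and scale (0.27) normalization. In Bin-2 with lonafarnib it read 6.63, 6.69 and 6.82, then 6.70, 6.79 and 6.79, then 6.37, 6.40 and 6.56. It fell by 0.32 between midpoint and end (SE 0.11, adjusted p = 0.023), a call lost without midpoint replicate 2 or 3 or end replicate 1 or 2 (-0.31 to -0.28) and kept after quantile (-0.50) and scale (-0.40) normalization.

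Before drug the start arrays of the 2 courses of a line had the same status, and 0 members and 0 genes were called between them by limma in either line (0% of 19938). At an unadjusted p below 0.05, 4 members differed in 8093 (Myc by 0.41, Mycl by 0.42, Max by -0.26 and Mxd4 by 0.32, lonafarnib start minus nilotinib start). In Bin-2 1 member did (Mxi1, -0.23). With a trended robust prior 17 genes were called between the 8093 starts, none of them a member, and 0 members had a call under any alternative. These differences are of the size of several small changes above, such as those of Mnt. In 8093 with nilotinib the called Max end (9.07) overlapped the lonafarnib start (9.12). So did the called midpoints of Mxd4 (8.64 against 8.56) and Mycl (5.37 against 5.22). By contrast, the Myc end (9.03) and the Max midpoint (8.53) lay below both 8093 starts. Between lines 3 members were called, where 20.1% of all genes were. Mycn was lower in Bin-2, with a lowest, median and highest array of 6.32, 6.48 and 6.81 against 6.81, 7.02 and 7.28 in 8093 (6 arrays each; difference -0.52, SE 0.15, adjusted p = 0.0118). Mxi1 was higher in Bin-2 (6.39, 6.68 and 6.81 against 6.25, 6.39 and 6.49; 0.27, SE 0.08, adjusted p = 0.011). So was Mnt (6.47, 6.66 and 6.82 against 6.31, 6.41 and 6.47; 0.25, SE 0.08, adjusted p = 0.014). The Mycn and Mnt arrays of the lines did not overlap, though for both genes the nearest arrays lay within 0.01 of each other, while those of Mxi1 overlapped. The calls of Mxi1 and Mnt were lost after quantile normalization (0.21 and 0.20), and that of Mnt without Bin-2 nilotinib start replicate 1 (0.22).

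Genes that MYC is known to activate, a list of 29 measured, fell together in 8093 under nilotinib. At the midpoint 28 of 29 fell (27.5% of all genes fell), with a median change of -1.20 against 0.03 over all genes, although Myc itself had not passed the test. The count was 27 after quantile or scale normalization. The median and the sizes of the falls are those of the deposited values on these compressed arrays, and are not given after normalization. The largest falls were of Ppat, the first enzyme of purine synthesis (-1.80, SE 0.12, adjusted p = 1.16e-12), Odc1, the polyamine synthesis enzyme (-1.77), and Hspe1, a mitochondrial chaperonin (-1.70). Ccnd2, the D-type cyclin, was the gene not called (0.15). At the end 27 of 29 fell (24.9% of all genes), with a median of -1.55 against -0.15 over all genes. Cdca7, a MYC-responsive cell division gene (-2.89), Bcat1, an enzyme of branched amino acid breakdown (-2.23), and Ppat (-2.09) fell most. Ldha (0.25) and Eif4e (-0.21) were not called. Cdk4, singled out here for its 4 E-boxes, fell by 1.12 (SE 0.12) at the midpoint and 1.35 (SE 0.13) at the end. With lonafarnib 14 of 29 fell and 1 rose at the 8093 midpoint (median -0.39; 6.90% of all genes fell), led by Srm (-0.85), Cdca7 (-0.71) and Nme1 (-0.67), with Ccnd2 higher by 0.67. The count of falls was 8 after quantile normalization. At the 8093 lonafarnib end 14 of 29 fell (median -0.38; 4.31% of all genes), led by Bcat1 (-1.28). In Bin-2 the same list gave 2 falls at the nilotinib midpoint (Odc1, -0.48, and Apex1, -0.41) and 1 at the nilotinib end (Gnl3, -0.34); both counts were 0 after quantile normalization, and 3.47% and 8.89% of all genes were called in either direction. The lonafarnib course gave 4 falls at the midpoint, where 16.5% of all genes were called in either direction, and 6 at the end (8.07% in either direction). The end also gave 1 rise (Ccnd2, 0.38, not called after quantile or scale normalization). These shares count both directions, so falls alone cannot be set against them, and nothing about the targets is read from the 4 midpoint falls. The medians in Bin-2 lay between -0.28 and -0.14. The nilotinib responses of the lines differed by the test of the difference for 26 of 29 genes at the midpoint and 25 of 29 at the end, all higher in Bin-2 than in 8093 (medians 1.03 and 1.31, against 0.01 and 0.13 over all genes). The E-box stood in the windows of 8 of the 22 list genes that had a window, against 8.09% of all 27025 genes with a window. Of the other genes named here with a window, Ppat, Odc1, Hspe1, Cdca7, Bcat1 and Gnl3 had 0 E-boxes. Nme1 had 1, Ldha and Eif4e had 2 each and Apex1 had 3. A link between E-boxes and the falls was not tested.

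**Figure D4:**
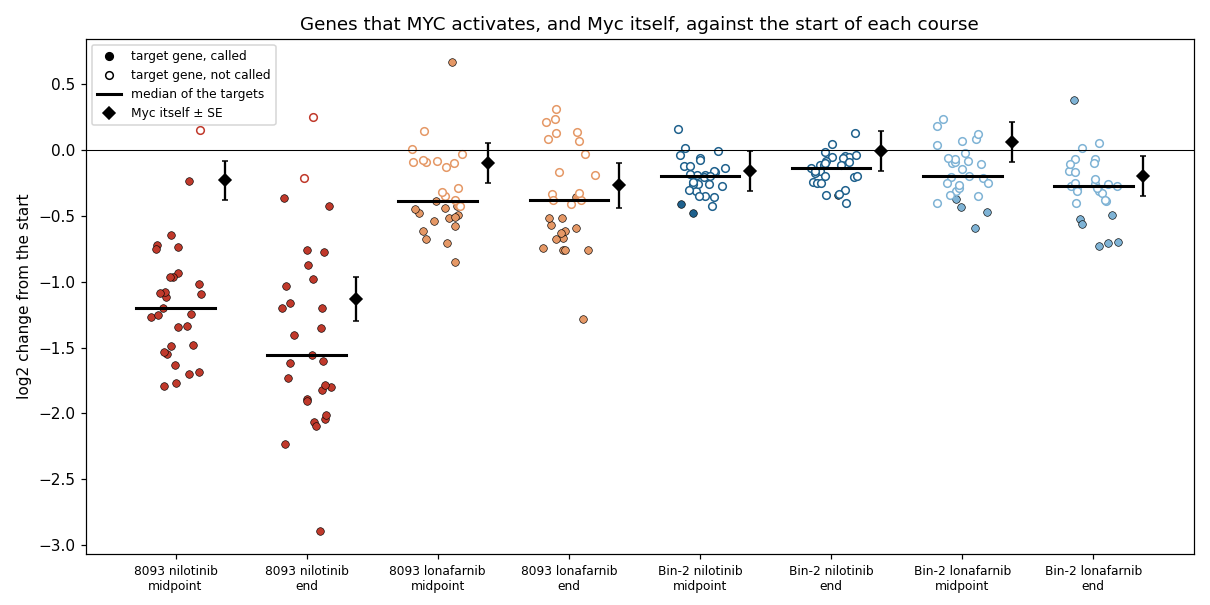
Log2 change from the start for each of 29 genes that MYC activates (points; filled, called), their median (bar) and Myc itself (diamond, with the standard error of the fit), in the 8 comparisons with the start. At the 8093 nilotinib midpoint the median target was at -1.20 while Myc was at -0.23, and in Bin-2 the medians lay between -0.28 and -0.14. All values are from the deposited signals without further normalization, and the 8093 nilotinib midpoint arrays had a compressed range.

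Cell cycle genes (16 measured) fell in 8093 as well. With nilotinib 15 fell at the midpoint (27.5% of all genes), led by the spindle checkpoint kinase gene Bub1 (-1.83), and 16 at the end (24.9%), led by the replication helicase gene Mcm7 (-1.96). With lonafarnib 13 fell at the midpoint (6.90% of all genes), led by the mitotic kinase gene Plk1 (-1.19), and 6 at the end (4.31%). These falls occurred in the same 8093 groups as the falls of the targets and as the rises of mast cell and macrophage markers given above, whose part in the levels of either list was not tested. In Bin-2 with lonafarnib 6 cell cycle genes fell at the midpoint, led by the nucleotide reductase gene Rrm2 (-0.88), and the proliferation marker Mki67 rose (0.35). There 16.5% of all genes were called in either direction. The falls numbered 3 after quantile and 2 after scale normalization. At the Bin-2 lonafarnib end 4 fell, again led by Rrm2 (-0.89), where 8.07% of all genes were called in either direction. With nilotinib 1 of 16 was called in Bin-2 at the midpoint (Plk1, -0.46; 3.47% of all genes called), a call lost after quantile and scale normalization.

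The counts that follow stand against 27.5% of all genes lower and 22.6% higher at the 8093 nilotinib midpoint, and 24.9% lower and 19.6% higher at its end, and those near these shares say nothing about a list. Among the genes that work with the network, the SIN3 corepressor complex (9 measured), which the MXD proteins recruit, had 8 members lower at the 8093 nilotinib midpoint. Sap30 (-1.61), Sap18 (-1.17) and Rbbp7 (-1.05) fell most, and the count was 5 after quantile or scale normalization. At the end 8 had fallen and Sin3b had risen (0.40, not called after scale normalization), with Sap30 at -1.93 and Rbbp7 at -1.72. Of 12 coactivators of MYC, 7 fell and 2 rose at that midpoint. The falls were led by Ruvbl1 (-1.62), Actl6a (-1.57) and Ruvbl2 (-1.25), subunits of chromatin remodelling complexes, and the remodelling ATPase gene Smarca4 rose (0.76). At the end 8 fell and Trrap, the scaffold that MYC binds, rose (0.39, not called after scale normalization). Among 8 genes of MYC protein turnover, 5 fell at the midpoint, led by Cip2a (-1.60), whose product shields MYC from a phosphatase, and Skp2 (-1.10), a ubiquitin ligase subunit. At the end 3 fell and 3 rose (1 rose after scale normalization). The falls were led by Skp2 (-1.34) and Cip2a (-1.24), the rises by Gsk3b (0.61), which encodes a kinase that marks MYC for degradation. Of 6 measured genes that MYC represses, 4 rose and 1 fell at the midpoint, with Ndrg2 at 1.74, Gadd45a at 0.65 and the cell cycle inhibitor Cdkn1b at 0.62; the fall was not called after quantile normalization. At the end 2 rose (Gadd45a, 1.77, and Cdkn1b, 0.61) and Ndrg1 fell (-1.20). At the Bin-2 lonafarnib end, by contrast, Ndrg1 rose against the start (1.21, SE 0.10), as did Cdkn1b (0.50, SE 0.13). No other gene of this list was called there, where 8.07% of all genes were called in either direction.

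The parallel MLX branch, in which MLXIP and MLXIPL pair with MLX and sense glucose metabolites, was read in a list of 6 genes. The list holds the targets Txnip and Arrdc4. It also holds Mga, which was listed beside the branch and not as part of it. Txnip, an inhibitor of thioredoxin and glucose uptake, rose at the 8093 nilotinib midpoint by 1.91 (SE 0.11, adjusted p = 5.64e-14) and at the end by 3.08 (SE 0.12, adjusted p = 1.10e-18). Arrdc4 rose by 1.34 and 2.94. Mlxip rose by 0.89 at the midpoint, where Mga fell by 0.53. In all, 4 rose and 2 fell at the midpoint (0 fell after quantile normalization), and 4 rose at the end, beside the shares of all genes just given. Txnip also rose at the 8093 lonafarnib midpoint (0.97) and end (0.56) and at the Bin-2 nilotinib midpoint (0.41).

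For the 5 members whose group means spanned at least 1 log2 unit, the genes of most similar pattern were sought among 6766 genes with a span as large, over the 12 group means, which share arrays of the same cultures. Myc was followed most closely by Nup210 (Pearson r = 0.976), Rcc2 (0.970) and Ttll4 (0.970), and Mxd1 by Fam102a (0.958), Pdk2 (0.948) and Lgals4 (0.945). Without the 8093 nilotinib end, the group farthest from the median of both, these values were 0.877 to 0.896 for Myc and 0.846 to 0.887 for Mxd1. Max was followed by Pter (0.950), Phf6 (0.941) and Usp45 (0.937), or 0.796 to 0.859 without the 8093 nilotinib midpoint. Mycn had Adgrg1 (0.913), Prrg4 (0.879) and Hes1 (0.860) as neighbours, and 0.796 to 0.865 without the Bin-2 nilotinib end. Mxi1 had Btla (0.831), Slc16a12 (0.825) and Plag1 (0.818), which dropped to between 0.514 and 0.649 without the 8093 lonafarnib end.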

How the data were processed

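RNA from 34 samples was hybridised to Affymetrix Mouse Gene 1.0 ST arrays. The values used are the log2 signals per probeset that the authors deposited; Partek is named in the submitters' processing notes, and for background correction, summarisation and normalization the method is not given in the sources used here. Signals have no read depth, and the number of arrays limits the precision. Of 35557 probesets, 21789 had a single gene symbol in the platform annotation, 1621 several and 12147 were not listed; the last 2 kinds were left out. The probeset of highest mean stood for a gene, which gave 19938 genes (999 with several probesets).

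Group means were fitted to all 34 arrays with limma 3.58.1 in R 4.3.3 (lmFit and eBayes, 22 residual degrees of freedom), and p-values were adjusted over 19938 genes by the Benjamini-Hochberg method, with calls at 0.05. Errors and 95% confidence intervals come from that fit, which uses 1 spread per gene for all 12 groups. Arrays of the Bin-2 nilotinib end spread more than any other group for Myc (standard deviation 0.41) and Mycn (0.66). The errors and intervals given for these 2 genes in that group may therefore be too narrow. Replicates are separate plates of 1 line, so p-values measure the spread between plates. On simulated data of the same size with 200 changed genes in all, the fit called 91% of 2-fold and 55.2% of 1.5-fold changes for the Bin-2 nilotinib midpoint. For the 8093 nilotinib end it called 95.5% and 53.7%, with 10 false calls in each comparison. In the real data 3.47% and 44.5% of all genes were called in these 2 comparisons. The adjusted threshold depends on the share of changed genes, so the simulated rates need not hold for the real comparisons.

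The members and gene lists were chosen with earlier results of these data known. The rule named, per pathway list and comparison described, the 3 called genes of largest change and the 1 of largest change the other way. It also named the 3 genes of highest correlation with each member spanning at least 1 log2 unit. Members of a list that missed a call, and Cdk4, were named after their values were seen. Alternatives were quantile and scale normalization, removal of dim genes, a trended robust prior, the mean of a gene's probesets, replicate blocks, fits of 1 line and leaving out each array. Promoter windows are from RefSeq (GRCm38). One listed gene each of 7 lists was not measured under a single symbol.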

Additional observations from a re-analysis of the deposited data

Results flagged for a closer look

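For 15 values the change of a member under one drug or in one line differed from that under the other, by the test of the difference itself (limma, adjusted over all genes). In 8093 at the midpoint, where 26.8% of all genes differed between the drugs' changes, nilotinib minus lonafarnib was 0.68 for Mycl, -0.80 for Max and 0.64 for Mxd3. In Bin-2 at the midpoint, where 1.48% of all genes differed, it was -1.17 for Mycn.

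At the nilotinib midpoint 26.0% of all genes differed between the lines, and Bin-2 minus 8093 was 0.90 for Max and -0.50 for Mxi1. At the end in 8093, where 33.2% of all genes differed between drugs, nilotinib minus lonafarnib was -0.86 for Myc, 0.80 for Mxd1 and -1.07 for Mxi1. At the end in Bin-2 (9.51% of all genes) it was -1.30 for Mycn and -0.65 for Mxd4. Between lines at the nilotinib end (30.6% of all genes) Bin-2 minus 8093 was 1.13 for Myc, -1.38 for Mycn and -1.03 for Mxd1, and at the lonafarnib end (4.61% of all genes) it was -1.02 for Mxi1. Doses and days differed between the courses compared, and the comparisons of nilotinib between lines share arrays with those between drugs.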

How the results depend on the processing

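The fall of Myc and the rise of Mxd1 at the 8093 nilotinib end kept their calls under every alternative run (-1.39 to -0.99 and 0.78 to 1.02), as did the falls of Max (-0.95 to -0.55) and Mycn (-0.83 to -0.59) at the 8093 nilotinib midpoint, of Mycn at the Bin-2 nilotinib midpoint (-1.40 to -1.24) and end (-1.70 to -1.04), and the rise of Mxi1 at the 8093 lonafarnib end (0.78 to 0.98). Signs of uncalled Myc changes turned at the 8093 nilotinib midpoint after scale normalization (0.044), and after quantile normalization at the 8093 lonafarnib midpoint (0.036) and the Bin-2 nilotinib end (0.018). Calls were lost in 8093 with nilotinib for Mycl at the midpoint (quantile 0.41, scale 0.41), Mnt there (8093 arrays alone, 0.30) and Max at the end (8093 arrays alone, -0.30). From midpoint to end they were lost for Mycn (quantile 0.57), Mycl (quantile -0.45, scale -0.46) and Max (quantile 0.21, scale 0.15). In Bin-2 with lonafarnib, end minus midpoint, they were lost for Max (quantile 0.19, scale 0.018) and Mxd4 (scale 0.32). Between lines before drug they were lost after quantile normalization for Mxi1 (0.21) and Mnt (0.20). For differences between drugs they were lost for Mycl in 8093 at the midpoint (quantile 0.60, scale 0.61), Mycn in Bin-2 at the midpoint (quantile -1.22, Bin-2 arrays alone -1.17) and Mxd4 in Bin-2 at the end (quantile -0.58). The cause was not tested.

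Replicate numbers did not pair the samples: correlations of same-numbered arrays ran from -0.18 to 0.16. With a replicate block the calls lost were Max at the 8093 nilotinib end (plate letter, -0.28), Mxd3 between midpoint and end of 8093 with lonafarnib (title number, 0.46; members called 1), and, with both kinds of replicate block, the drug differences of Mycl in 8093 (0.68) and Mycn in Bin-2 (-1.17).

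Without 1 array, ranges were as follows. In 8093 with nilotinib they were 0.30 to 0.49 for Mxd4 and 0.25 to 0.39 for Mnt at the midpoint, -0.36 to -0.27 for Max at the end, and 0.54 to 0.88 for Mycn and -0.67 to -0.51 for Mycl between these times. In 8093 with lonafarnib 1 to 2 members were called at the midpoint (Mxd1 0.44 to 0.64, Mxd3 -0.70 to -0.47) and 1 to 2 from there to the end (Mxd3 0.44 to 0.65). In Bin-2, Myc at the nilotinib end ran from -0.24 to 0.14. With lonafarnib 0 to 1 members were called at the end (Mxd4 0.49 to 0.63; 0 without start replicate 2) and 1 to 3 between midpoint and end (Max 0.29 to 0.33, Mnt -0.38 to -0.28). The line difference of Mnt ran from 0.22 to 0.28. Drug differences ran from 0.59 to 0.80 (Mycl), 0.50 to 0.74 (Mxd3) and -1.03 to -0.70 (Myc, end) in 8093, and from -1.28 to -1.02 (Mycn) and -0.74 to -0.53 (Mxd4) in Bin-2. The line difference of Mxi1 at the nilotinib midpoint ran from -0.59 to -0.43.

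Of all genes called, Bin-2 lonafarnib midpoint had 3287, or 1975 after quantile normalization, and the Bin-2 midpoint difference between drugs 295, or 188 with the title-number block. Among list counts, falls of MYC-activated targets at the Bin-2 lonafarnib midpoint were 4, or 2 after quantile normalization and 0 after scale normalization (with 4 rises).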
